A study of Mus musculus with 4 samples.

Results

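The NR4A genes Nr4a1, Nr4a2 and Nr4a3 encode a small family of orphan nuclear receptors, known as Nur77, Nurr1 and Nor1, and their accessible chromatin was examined in mouse bone marrow-derived macrophages (BMDMs) with and without a short IL-4 stimulation. ATAC-seq, in which the Tn5 transposase cuts open DNA and leaves sequencing adapters in it, was performed on cells from wild-type mice aged 8 to 12 weeks on a C57BL/6 background. In both groups the bone marrow cells had been differentiated for 6 days in L929 supernatant, which supplies macrophage colony-stimulating factor. The control group (n = 2 libraries) received nothing further, and the IL-4 group (n = 2 libraries) was exposed to IL-4 at 20 ng/ml for 1 h. The methods describe 2 biological replicates, but neither they nor the labels tie a library to an animal, so the spread between libraries may be partly technical. Overlapping peaks (1 bp or more) of the 4 libraries were joined into regions, and each region was assigned to the gene that the files give for its highest peak. Of 60710 regions, 22 carried the name of an NR4A gene, namely 5 for Nr4a1, 10 for Nr4a2 and 7 for Nr4a3. This assignment is to the nearest start site and does not show which gene a distal region acts on.

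NR4A receptors bind DNA as monomers at the NBRE or as dimers, and they act without a classical ligand, so their activity largely follows how much protein is made. The genes are immediate-early genes: in many cell types, macrophages included, cAMP signals, growth factors and inflammatory stimuli switch them on within minutes to hours without new protein synthesis, in large part through CREB proteins at cAMP response elements (CREs) near the start site. IL-4 signals mainly through the transcription factor STAT6. The question addressed here was whether the open chromatin at these genes differed after 1 h of IL-4.

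The promoter sequences are shown because the promoter examined for each NR4A gene held several CRE half-sites, and these lay within accessible regions. Nr4a2 also has a start site farther downstream, that of NM_013613, and the bases before it were not examined as a promoter. The bases before the start site are from RefSeq on GRCm38.p6, the assembly behind mm10, and capitals mark the CRE half-site TGACG or its reverse complement CGTCA. The Nr4a1 promoter is chr15:101266596-101266845 (plus strand), and the Nr4a2 promoter is chr2:57124004-57124253 (minus strand, printed as the gene is read). For Nr4a3, the accessible region that overlaps the promoter, chr4:48044965-48045107 (plus strand), is printed up to the bases just past the start of a predicted transcript.
Nr4a1 promoter: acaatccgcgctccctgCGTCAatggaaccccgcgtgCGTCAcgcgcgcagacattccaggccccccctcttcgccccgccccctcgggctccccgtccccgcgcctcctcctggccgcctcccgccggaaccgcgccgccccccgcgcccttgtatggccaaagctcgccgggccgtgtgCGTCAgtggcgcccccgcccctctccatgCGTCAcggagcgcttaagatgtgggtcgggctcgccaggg
Nr4a2 promoter: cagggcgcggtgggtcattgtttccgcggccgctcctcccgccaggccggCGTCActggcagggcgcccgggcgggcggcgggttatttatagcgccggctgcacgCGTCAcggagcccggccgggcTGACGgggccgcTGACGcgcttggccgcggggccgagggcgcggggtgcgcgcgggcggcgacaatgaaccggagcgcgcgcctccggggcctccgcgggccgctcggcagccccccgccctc
Nr4a3 promoter region: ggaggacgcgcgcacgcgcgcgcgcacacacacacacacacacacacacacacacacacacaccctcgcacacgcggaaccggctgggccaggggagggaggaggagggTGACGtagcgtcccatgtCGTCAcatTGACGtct

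Each of these promoters held 4 CRE half-sites in the 250 bases before its start site. Among 32851 mouse promoters of the same length, 5836 (17.8%) held at least 1 half-site and 45 (0.137%) held at least 4. The 3 NR4A promoters examined were among these 45. This count was made after the sequences had been seen. The accessible regions that overlap these promoters had a GC content of 64.2% to 78.6%, and its part in this count was not tested. The fourth half-site of Nr4a3 lies beyond the printed stretch but inside the same accessible region. All 250 promoter bases of Nr4a2, 249 of those of Nr4a1 and 136 of those of Nr4a3 were covered by an NR4A region, and each of these 3 regions contained 4 half-sites. The full palindromic CRE, TGACG followed at once by TCA, which contains the half-site, was absent from these promoters and from all 22 regions. It was found in only 1.22% of all regions and 1.79% of all promoters, so its absence here says little. A match describes the letters only and does not show binding.

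The height of a peak is given as the deposited score, taken to be −log10 of the peak caller's q-value. The score states how far a peak exceeds the local background within 1 library, and it rises with sequencing depth, which is unknown because the files hold no reads. Control replicates 1 and 2 contained 45250 and 41885 peaks with median scores of 8.04 and 7.46. After IL-4, replicates 1 and 2 contained 41978 and 39462 peaks with medians of 7.69 and 6.41. IL-4 replicate 2 thus had the fewest peaks and the lowest median score, and it also had the most peaks with a score under 2 (603, against 133 to 267 in the others). The promoters of 7 of 10 macrophage marker genes, among them Adgre1, Cd14, Cd68 and Spi1, had a peak in all 4 libraries. Mertk had a promoter peak in some libraries. Csf1r and Itgam had no promoter peak in any, although both had other regions with a peak in all 4 libraries. The summed scores of the macrophage marker promoters were 123 and 97.9 in the controls and 110 and 89.1 after IL-4. No promoter of the 5 T cell, 5 B cell, 5 neutrophil and 5 fibroblast or endothelial markers had a peak in any library. Of these markers, Cd3d, Lck, Ms4a1, Pecam1 and Cdh5 had regions outside promoters with a peak in all 4 libraries. For 2 of 4 dendritic cell markers, Flt3 and Zbtb46, a promoter peak was found in some libraries, with summed scores of 12.7 and 7.76 in the controls and of 12.8 and 0 in the IL-4 libraries.

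Of the 22 NR4A regions, 11 had a peak in all 4 libraries (against 41.9% of all regions), 4 had one in 3 libraries, 2 in 2 libraries and 5 in 1 library. Only 2 of the 22 were peaks of a single group throughout, called in both of its libraries and absent from the other group. By the annotation in the files, 3 regions were promoters, 6 were intronic and 13 were intergenic. The share of intergenic regions was 59.1%, whereas it was 35.8% among all regions, although some intergenic regions lie at start sites that a newer annotation gives, at Nr4a3 and Nr4a1. The regions were 103 to 793 bp long, with a median of 243 bp (209 bp over all regions).

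**Figure D1:**
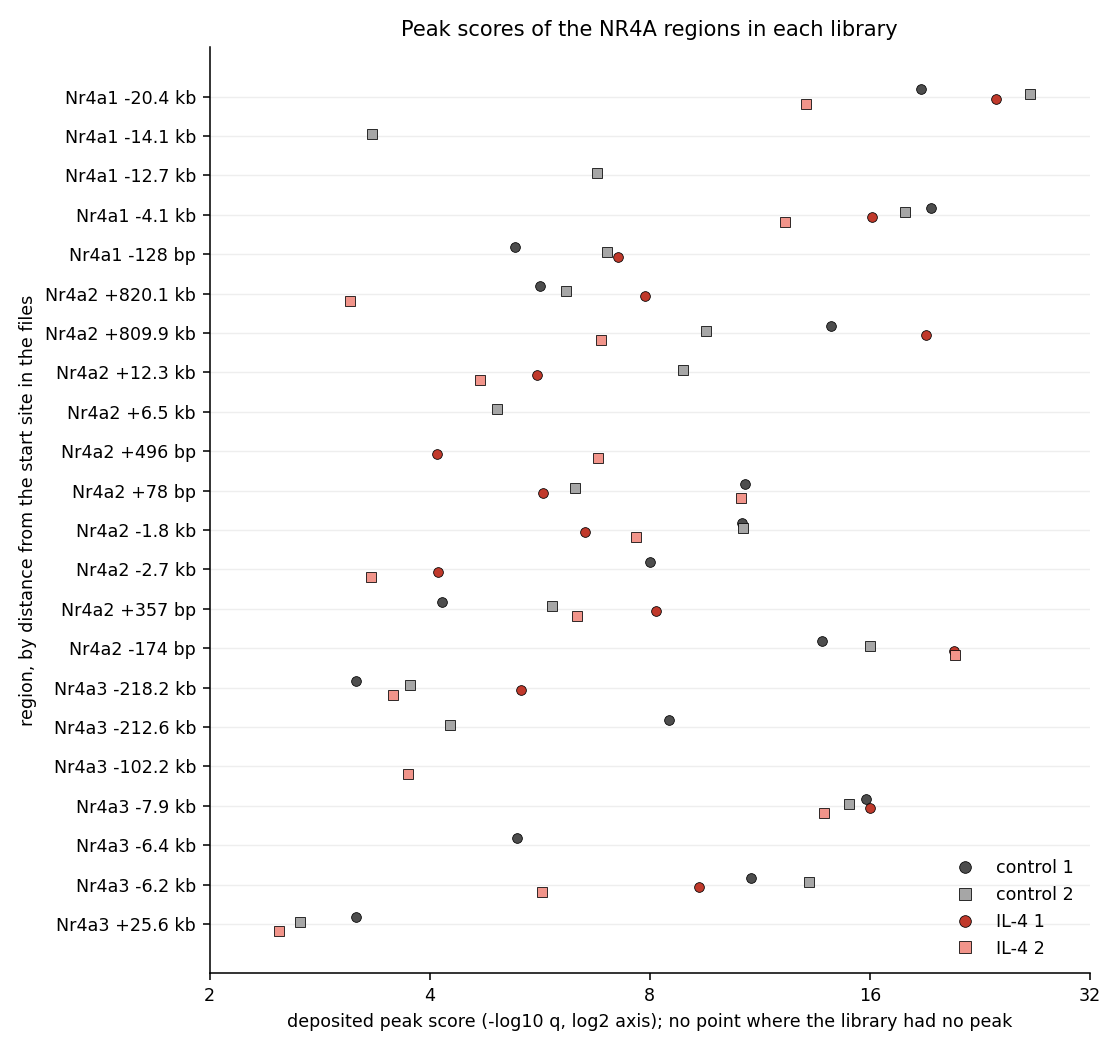
Deposited peak scores (−log10 q, log2 axis) of the 22 NR4A regions, 1 region per line, named by gene and distance from the start site in the files. Grey points are the control libraries and red points the IL-4 libraries, and a missing point means that the library had no peak. The highest scores are at the Nr4a1 region −20.4 kb (13.1 to 26.46) and at the upstream Nr4a2 promoter (13.76 to 20.95), and the points of the groups intermix at 6 of the 11 regions that have all 4 points.

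Nr4a2, which encodes Nurr1, had a pair of promoters, and the upstream one gave the lowest unadjusted p of the NR4A regions tested. The region chr2:57123957-57124376, which covers the start of the longer transcript NM_001139509 and part of its first exon, scored 13.76 and 15.99 in the controls, against 20.87 and 20.95 after IL-4. In the GRCm38.p6 annotation this region also overlaps another gene, LOC105244150. Both IL-4 libraries were above both controls, as they were at 8.83% of all regions tested in the deposited scores and at 19.2% after normalisation. Within their libraries these scores stood above 73.9% and 83.1% of peaks in the controls and above 90.4% and 94.4% in the IL-4 libraries. After quantile normalisation the log2 scores were 3.57 and 3.98 in the controls and 4.33 and 4.61 after IL-4, a log2 change of 0.69 ± 0.32 (SE), or 1.62-fold. The unadjusted p of limma was 0.0331 (95% interval of the log2 change 0.06 to 1.33), and the Benjamini-Hochberg adjusted p of limma was 0.561, so the difference was not called. Without IL-4 replicate 2 the log2 change was 0.54 ± 0.40 (SE). In a bulk profile, more cells with an open site and a more open site per cell cannot be told apart. Of the 25442 regions tested, 84.3% had a smaller absolute change.

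The neighbouring region just downstream, chr2:57123513-57123845, lies in the first intron and touches the end of exon 1. It too overlaps LOC105244150. Its deposited scores were also higher after IL-4, being 4.16 and 5.87 in the controls and 8.17 and 6.37 after IL-4. Both IL-4 libraries were above both controls, as they were at 8.83% of all regions tested in the deposited scores (19.2% after normalisation). The gap between the groups (5.87 to 6.37) was smaller than that between the control libraries. The log2 change was 0.78 ± 0.54 (SE), the largest over the 11 NR4A regions tested, with an adjusted p of 0.749 (limma). When peaks within 500 bp were merged, both regions became 1 region with a log2 change of 0.70 ± 0.32 (SE) and an adjusted p of 0.552 (limma).

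At the downstream promoter the groups overlapped. The region chr2:57114814-57115061, at the start of the shorter transcript NM_013613, scored 10.81 and 6.32 in the controls and 5.72 and 10.65 after IL-4. High and low values occurred in both groups, and the log2 change was 0.15 ± 0.51 (SE), with an adjusted p of 0.965 (limma). Its interval, −0.86 to 1.17, is wide and does not show that accessibility was equal. A further region with a peak in all libraries lay in intron 1 of the longer transcript, chr2:57116525-57116966, with scores of 10.7 and 10.73 in the controls and 6.52 and 7.67 after IL-4. The deposited scores were lower in both IL-4 libraries, as they were at 29.3% of all regions tested, but after normalisation the groups overlapped and the log2 change was −0.36 ± 0.48 (SE), with an adjusted p of 0.899 (limma). It holds 3 CRE half-sites, and a pair of them lie close together at chr2:57116803-57116877 (plus strand).
Nr4a2 intron 1: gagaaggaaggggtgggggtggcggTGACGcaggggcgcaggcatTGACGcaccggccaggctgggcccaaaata

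One NR4A region had a peak in both IL-4 libraries and in neither control, and it also belonged to Nr4a2. The region chr2:57114487-57114747 scored 4.09 and 6.8 in IL-4 replicates 1 and 2 and begins in intron 1 of the longer transcript, while its last 30 bases are in exon 1 of NM_013613. In both libraries this is a modest peak, above 14.0% and 52.9% of the peaks of its library. Of all regions, 1534 of 60710 (2.53%) were IL-4-only by the same definition, so 1 of 22 is close to that background, and 57.9% of the IL-4-only regions had a lower weaker score than 4.09. The downstream promoter region begins shortly after it, and with peaks merged within 500 bp the IL-4-only region was absorbed into it and the count fell to 0. The part of the region outside exons, chr2:57114487-57114717 (plus strand), is shown because it is the IL-4-only sequence of the family, and it contains none of the 13 motifs searched.
Nr4a2 IL-4-only region: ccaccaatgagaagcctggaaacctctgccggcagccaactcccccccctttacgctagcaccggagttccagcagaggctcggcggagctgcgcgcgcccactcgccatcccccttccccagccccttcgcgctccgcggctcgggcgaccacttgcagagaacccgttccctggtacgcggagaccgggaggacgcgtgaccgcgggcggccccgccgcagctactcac

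The other Nr4a2 regions had low scores or varied within groups. At 12.3 kb downstream of the shorter transcript's start site, past the 3′ end of the gene, the intergenic region chr2:57102614-57102829 had no peak in control replicate 1, a score of 8.89 in control replicate 2 and scores of 5.6 and 4.69 after IL-4. It is 1 of 2 NR4A regions with an AP-1 element (TGAGTCA, bound by FOS and JUN dimers), and it also has an EGR core (GCGTGGG) and a C/EBP element (TTGC and AA separated by 2 bases), all marked in capitals.
Nr4a2 region at +12.3 kb: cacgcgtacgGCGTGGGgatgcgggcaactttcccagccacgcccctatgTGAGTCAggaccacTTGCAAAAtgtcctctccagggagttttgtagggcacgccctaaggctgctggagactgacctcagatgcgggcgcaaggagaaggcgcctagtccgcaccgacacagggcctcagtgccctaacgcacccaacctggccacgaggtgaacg

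An intronic region 2.7 kb upstream of the shorter transcript's start scored 8.0 in control replicate 1 and 4.11 and 3.32 after IL-4, with no peak in control replicate 2. A region 6.5 kb downstream of that start had a single peak, of 4.95 in control replicate 2. The files call this region intronic, but it overlaps an exon of every Nr4a2 transcript in the GRCm38.p6 annotation. The most distant pair of regions lay 809.9 and 820.1 kb beyond the start, past the 3′ end of the gene, and carry the gene's name because it is the nearest start site in the files. Their scores were 14.14 and 9.55 in the controls against 19.08 and 6.86 after IL-4 for the nearer region, and 5.66 and 6.15 against 7.89 and 3.11 for the farther one. At both, IL-4 replicate 1 was the highest library and IL-4 replicate 2 the lowest. The log2 changes were 0.22 ± 0.42 and −0.03 ± 0.55 (SE), with adjusted p of 0.935 and 0.996 (limma).

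**Figure D2:**
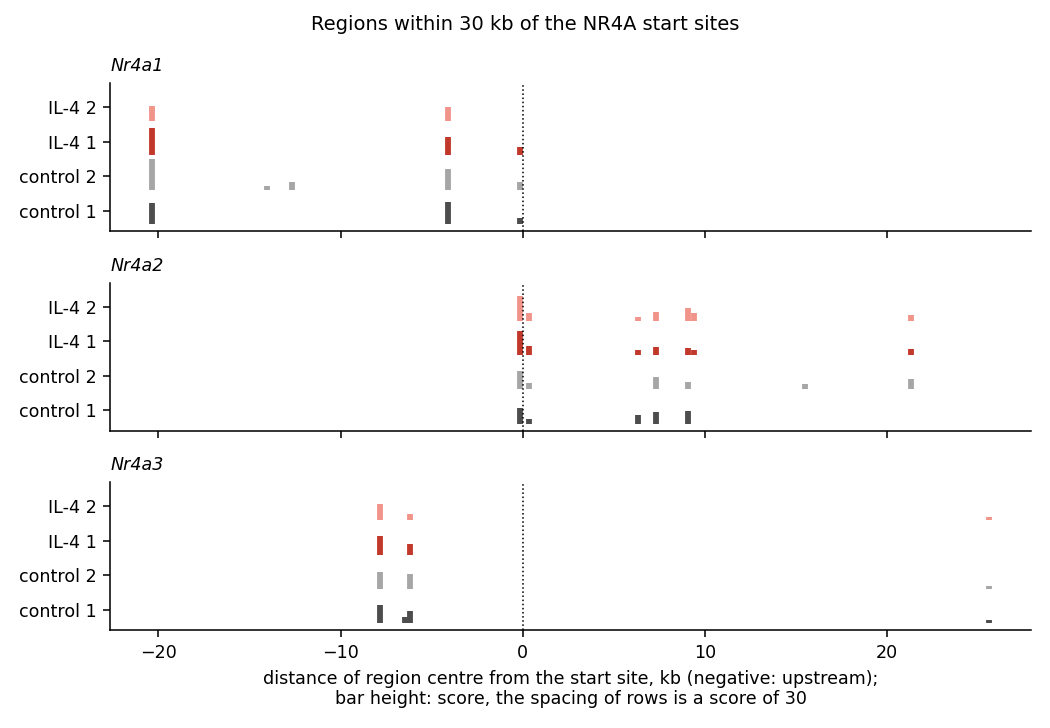
Regions within 30 kb of the start site of each NR4A gene, at the distance of the region centre in kb (negative values are upstream), with 1 row per library and bar height equal to the peak score. For Nr4a2 distances are from the upstream promoter, and for Nr4a3 from the start site used in the files. Nr4a1 shows its tallest bars at −20.4 and −4.1 kb rather than at the start site, and Nr4a2 at the upstream promoter.

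Nr4a1, which encodes Nur77, the member best known in macrophages, had its strongest accessibility upstream of the promoter. The region chr15:101246221-101246688, 20.4 kb before the start of NM_010444, scored 18.77 and 26.46 in the controls and 23.84 and 13.1 after IL-4. These were the highest deposited scores of any NR4A region in control replicate 2 and IL-4 replicate 1, where they exceeded 96.1% and 93.3% of peaks. The groups overlapped, and the log2 change was −0.14 ± 0.30 (SE), with an adjusted p of 0.941 (limma). The region chr15:101262574-101262880, 4.1 kb upstream and within an intron of longer predicted transcripts, scored 19.37 and 17.85 in the controls and 16.13 and 12.23 after IL-4. Here both IL-4 libraries were below both controls, before and after normalisation, by a log2 change of −0.20 ± 0.33 (SE) with an adjusted p of 0.927 (limma). The same order was found at 29.3% of all regions tested in the deposited scores and at 18.6% after normalisation. 

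The Nr4a1 promoter itself was a weaker peak. The region chr15:101266597-101266881 covers the start site and scored 5.24 and 6.99 in the controls and 7.24 in IL-4 replicate 1, and IL-4 replicate 2 had no peak there. With the missing peak set to the lowest score of its library, the log2 change was −0.83 ± 1.01 (SE) and the adjusted p 0.834 (limma), and the direction of that value rests on the library without a peak. Both other Nr4a1 regions were seen only in control replicate 2, with scores of 3.33 at −14.1 kb and 6.78 at −12.7 kb. The latter is called intergenic in the files but covers the start of a predicted Nr4a1 transcript in the GRCm38.p6 annotation, and it too holds 2 CRE half-sites.

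Nr4a3, which encodes Nor1, was accessible at a cluster of regions around its start site and at a distal cluster. The region chr4:48044965-48045190, whose sequence is given with the promoters, lies 6.2 kb upstream of the start site used in the files, but in the GRCm38.p6 annotation it covers the start of a predicted transcript and overlaps the promoter of NM_015743. It scored 11.01 and 13.2 in the controls and 9.35 and 5.7 after IL-4. Both IL-4 libraries were below both controls, as at 29.3% of all regions tested (18.6% after normalisation). The log2 change after normalisation was −0.48 ± 0.46 (SE), with an adjusted p of 0.849 (limma). Without IL-4 replicate 2, the lowest of the 4 libraries here, the log2 change was −0.28 ± 0.50 (SE).

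Slightly farther upstream, chr4:48042849-48043641 was the widest NR4A region. Its deposited scores varied little and overlapped, being 15.79 and 14.99 in the controls and 16.03 and 13.87 after IL-4. After normalisation both IL-4 libraries were above both controls, as at 19.2% of all regions tested. The log2 change was 0.17 ± 0.34 (SE), with an adjusted p of 0.938 (limma). This region contains 3 CRE half-sites, of which the pair at chr4:48043430-48043506 (plus strand) is shown for comparison with the promoters.
Nr4a3 upstream region: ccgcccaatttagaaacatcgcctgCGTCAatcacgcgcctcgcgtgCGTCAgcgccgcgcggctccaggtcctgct

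Between these lay a region with 1 peak, of 5.27 in control replicate 1. In the distal cluster, chr4:47838516-47838733, at −212.6 kb, was the only control-only NR4A region, with scores of 8.49 and 4.27 and no peak after IL-4. Among all regions, 2630 (4.33%) were control-only, so 1 of 22 is again close to the background, and 54.4% of such regions had a lower weaker score than 4.27. Its sequence (plus strand, intergenic) holds a PU.1 element (AGGAAGT, an ETS motif of the macrophage lineage factor), a CRE half-site and a C/EBP element, marked in capitals.
Nr4a3 control-only region: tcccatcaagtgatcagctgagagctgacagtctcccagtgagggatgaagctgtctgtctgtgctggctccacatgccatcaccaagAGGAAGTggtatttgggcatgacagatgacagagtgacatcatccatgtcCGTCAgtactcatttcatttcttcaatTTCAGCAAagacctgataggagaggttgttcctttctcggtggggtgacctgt

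The region chr4:47832976-47833213, at −218.2 kb, had low scores of 3.17 and 3.76 in the controls and 5.34 and 3.56 after IL-4. The deposited scores overlapped. After normalisation both IL-4 libraries (2.36 and 2.04) were above both controls (1.48 and 1.90), as at 19.2% of all regions tested. The log2 change was 0.51 ± 0.55 (SE), with an adjusted p of 0.868 (limma). A region at −102.2 kb had a single peak, of 3.73 in IL-4 replicate 2. The intronic region 25.6 kb downstream of the start site had scores of 3.17 and 2.66 in the controls and 2.49 in IL-4 replicate 2, with no peak in IL-4 replicate 1, of which 2.66 and 2.49 were the lowest NR4A scores.

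Across the family, none of the 11 regions tested was called by limma at an adjusted p of 0.05 in either direction, and 1 of 11, the upstream Nr4a2 promoter, had an unadjusted p under 0.05 (9.09%, against 8.28% of all regions). The whole table gave 4 regions higher (0.0157%) and 2 lower (0.00786%) after IL-4. The log2 changes of the NR4A regions ran from −0.48 to 0.78 with a median of 0.15, beside a median of 0.00 and an SD of 0.50 over all regions. Normalised scores of both IL-4 libraries were above both controls at 4 of 11 regions, beside 19.2% of all regions, and below both at 2 of 11, beside 18.6%. The deposited scores are not adjusted for differences between libraries. In them both IL-4 libraries were above both controls at 2 of 11 regions, beside 8.83% of all 25442 regions, and below both at 3 of 11, beside 29.3%. With 11 regions these counts are too few to judge against the background shares, and neighbouring regions of a gene are not independent.

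**Figure D3:**
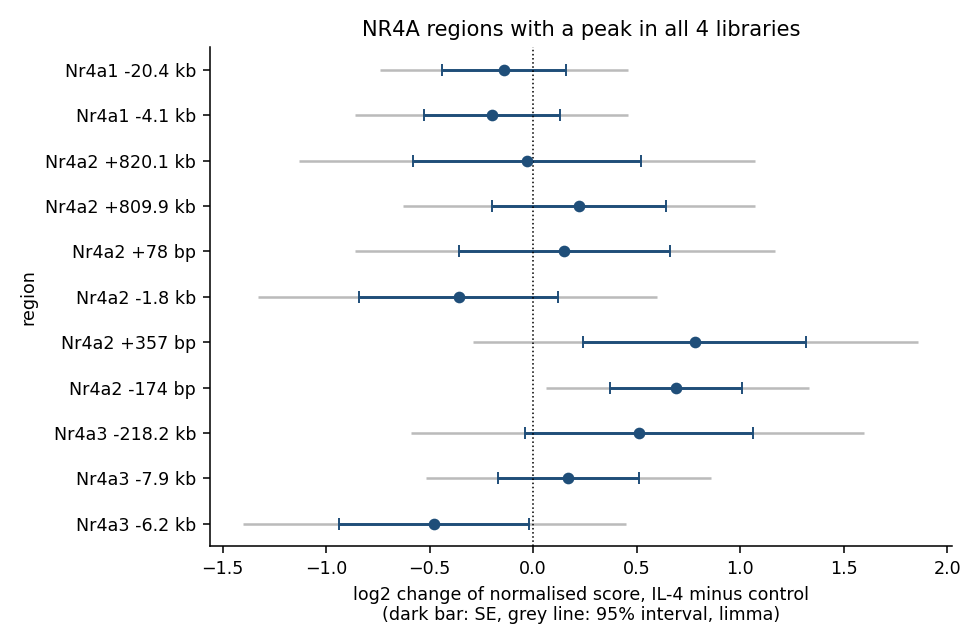
Log2 change of the normalised score (IL-4 minus control) for the 11 NR4A regions with a peak in all 4 libraries, with the SE as the dark bar and the 95% interval of limma as the grey line. The intervals span 0 except at the upstream Nr4a2 promoter (−174 bp, 0.06 to 1.33), which had an adjusted p of 0.561.

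Averaged over the shared regions of each gene, the normalised log2 scores of Nr4a2 (6 regions) were 2.95 and 3.07 in the controls and 3.26 and 3.25 after IL-4. The IL-4 libraries were both higher, with a mean of 3.25 ± 0.01 against 3.01 ± 0.08 (SD, n = 2 each). The difference was 0.24 with p = 0.3333 in a two-sided exact permutation test, the smallest p that 2 against 2 libraries allow. The 6 regions did not move together. Both neighbouring regions at the upstream promoter changed by 0.69 and 0.78, and the others by 0.22, 0.15, −0.03 and −0.36. IL-4 replicate 1 was above replicate 2 at +809.9 kb (deposited scores 19.08 and 6.86). It was below replicate 2 at the downstream promoter (5.72 and 10.65). The SD of 0.01 thus does not show that the IL-4 libraries were alike at each region. For Nr4a1 (2 regions) the means were 4.06 and 4.44 in the controls and 4.24 and 3.93 after IL-4, a difference of −0.17 (exact permutation p = 0.6667). For Nr4a3 (3 regions) they were 2.83 and 3.16 in the controls and 3.16 and 2.97 after IL-4, a difference of 0.07 (exact permutation p = 0.6667). At Nr4a1 and Nr4a3 the groups overlapped. With 3 genes tested, no p could pass a threshold of 0.05 before or after adjustment.

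**Figure D4:**
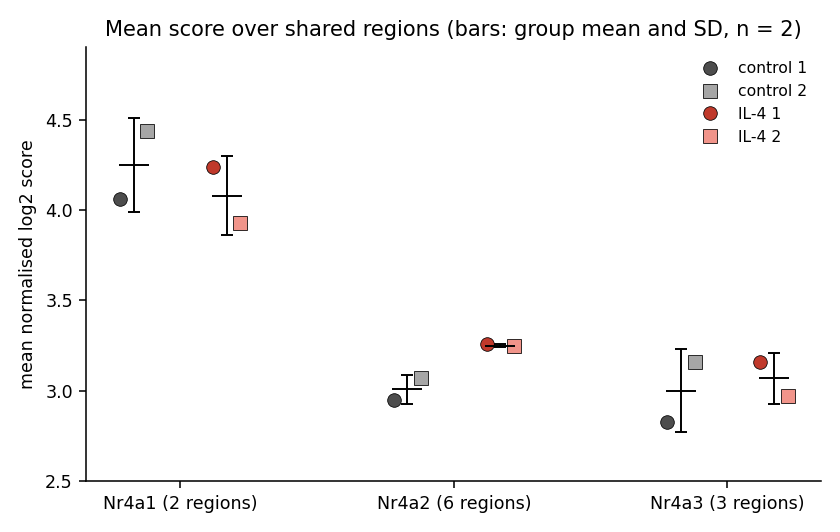
Mean normalised log2 score over the shared regions of each NR4A gene, 1 point per library, with the group mean and SD (n = 2) in black. The axis starts above 0. The IL-4 points (3.26 and 3.25) lie above the control points (2.95 and 3.07) at Nr4a2, whereas the groups overlap at Nr4a1 and Nr4a3. Of the 6 Nr4a2 regions averaged, 4 had a positive and 2 a negative log2 change.

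The number of NR4A peaks was 18 and 19 in the controls and 16 and 16 after IL-4. The difference was −2.50 peaks (18.50 ± 0.707 against 16 ± 0, SD, n = 2 each; exact permutation p = 0.3333). The controls also had more peaks in total on average, but library by library the order differed. Control replicate 2 had fewer peaks in total than IL-4 replicate 1 (41885 against 41978) and more NR4A peaks (19 against 16). The part that depth has in the difference cannot be told apart from the group. Nr4a1 contributed 3 and 5 control and 3 and 2 IL-4 peaks, Nr4a2 8 and 9 against 9 and 9, and Nr4a3 7 and 5 against 4 and 5. Peaks covered 4397 and 4522 bases in the controls and 4231 and 3305 bases after IL-4, and the low value was that of IL-4 replicate 2.

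A CRE half-site was present in 9 of 22 regions (40.9%), beside 16.5% of all regions, and in the 200 bp around the centre of the highest peak the count was again 9 of 22, beside 13.7%. The 9 regions were spread over the family, with 3 each at Nr4a1, Nr4a2 and Nr4a3. The GC content of these regions ran from 49.1% at the control-only region to 83.0% at the predicted Nr4a1 start, and its part in the count was not tested. The PU.1 element was found in 8 of 22 regions (22.2% of all regions), the EGR core in 3 (3.81%), and MEF2 and NF-κB elements in 2 each (2.67% and 3.62%). AP-1 elements (TGAGTCA or TGACTCA) were in 2 (18.1%) and C/EBP elements in 3 (12.1%).

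No NR4A region contained the STAT6 element, TTC and GAA separated by 4 bases, which 7.22% of all regions contained, or the form with 3 bases between them (6.90%). The NBRE, AAAGG followed at once by TCA, which is the site of the NR4A proteins themselves, was likewise in none (1.13% of all regions). The RUNX element TGTGGT (20.4%) and the CArG box of SRF (1.20%) were also absent. No match says only that the letters are not in these windows. Both strands were searched throughout.

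**Figure D5:**
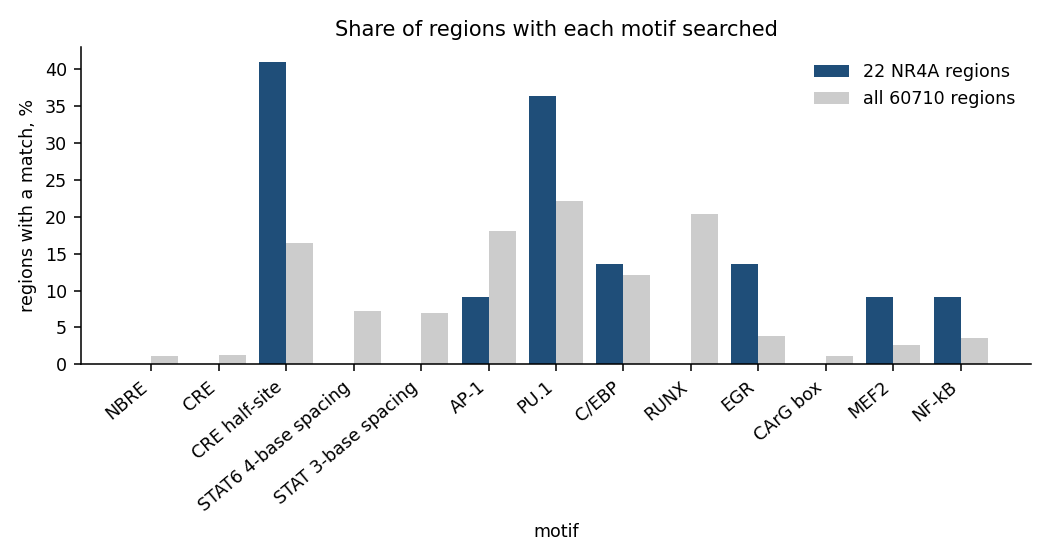
Share of regions (%) with at least 1 match to each motif searched, for the 22 NR4A regions (blue) and all 60710 regions (grey). The widest gap is at the CRE half-site, 40.9% against 16.5%, and NR4A bars are missing at the STAT, NBRE, full CRE, RUNX and CArG elements, which had no match.

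The genes around the NR4A family in the immediate-early response showed as few calls. The 24 other immediate-early genes had 232 regions, of which 115 were in all libraries, and 0 of these passed the test in either direction (6 had an unadjusted p of limma under 0.05), with a median log2 change of −0.06 beside 0.00 over all regions. Of the 232 regions, 6 were IL-4-only and 10 control-only, beside 2.53% and 4.33% of all regions. An unadjusted p of limma under 0.05 was found at 8.28% of all regions tested. The highest mean changes were those of Junb (0.37), a JUN family subunit of AP-1, and Egr2 (0.21), a zinc finger factor, and the lowest those of Zfp36 (−0.83), an mRNA decay factor, and Fosl2 (−0.47), a FOS family subunit. None of these 4 genes had a called region. The immediate-early genes whose mean normalised scores varied most like the NR4A genes over the 4 libraries, by the distance of centred log2 profiles, were Atf3 (0.18), Ier2 (0.24) and Dusp2 (0.28) for Nr4a1. For Nr4a2 they were Ier5 (0.16), Rgs1 (0.16) and Nfkbia (0.17), and for Nr4a3 they were Ier3 (0.09), Atf3 (0.14) and Ier5 (0.21). These distances are over 4 libraries only and describe likeness without a test.

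Upstream regulators of NR4A transcription, a list of 20 genes of the cAMP, CREB, MEF2 and SRF pathways, had 185 regions with 89 in all libraries. None was called in either direction by limma (7 had an unadjusted p under 0.05), the median log2 change was 0.02, and 6 regions were IL-4-only and 5 control-only. Sik2, a kinase that restrains the CREB coactivators, had the highest mean change (0.46, 3 regions) and Ptger2, a prostaglandin E2 receptor, the next (0.30), while Crebbp, the CREB-binding acetyltransferase, was lowest (−0.62, 1 region), followed by Sik1 (−0.41). Among 16 partners and cofactors, 15 had a region, and 29 of 74 regions were shared. Again none was called by limma (4 had an unadjusted p under 0.05), with a median log2 change of −0.24, 1 IL-4-only region and 5 control-only regions. For both lists, the shares over all regions were 8.28% with such a p, 2.53% IL-4-only and 4.33% control-only. Rxrg (−1.40, 1 region), a retinoid X receptor, the receptor type with which Nur77 and Nurr1 form dimers, and Hdac3 (−0.79, 1 region), a histone deacetylase, were lowest, and Kdm1a (0.45, 1 region), a histone demethylase, and Trim28 (0.44), a corepressor, were highest. The lowest adjusted p of limma in these lists was 0.236, at Pde4b, a phosphodiesterase that breaks down cAMP.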

How the data were processed

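ATAC-seq libraries of control and IL-4-treated BMDMs (2 each) were analysed as deposited peak lists. According to the methods and the submitters' processing notes, the authors aligned reads to mm10 with BWA 0.7.10, called peaks in each library with MACS2 2.0.10, removed blacklisted regions and annotated peaks with HOMER 4.2. Handling of the Tn5 offset and of duplicates is not given in the sources used here. The deposited scores carry no stated unit and were read as −log10 q-values, because the lowest was 1.30 to 1.32, close to −log10 of 0.05. The methods name a cut-off of q of 0.01, yet some scores are below 2. Files with read depth were not analysed here, so depth is unknown.

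Autosomal, X and Y peaks were merged (bedtools 2.31.1 gave the same 60710 regions), and a region took the highest score per library. For the 25442 regions present in every library, log2 scores were quantile-normalised and compared by limma 3.58.1 (R 4.3.3, eBayes, trend on), and p-values were adjusted over the table by Benjamini-Hochberg at a threshold of 0.05. The fit, region merging and motif search were tested on simulated data. Alternatives changed the normalisation, the trend, the block, the score limit, the region score, the merging distance and the libraries used. Values are given in all libraries for promoters, for group-only regions and for the shared regions of each gene with the highest scores or largest changes. From other gene lists the 2 highest and 2 lowest genes are named, and Adgre1 and Spi1 were matched through older symbols. The genes and lists were chosen with earlier results of these data known. RefSeq promoters (GRCm38.p6) matched all 3 genes.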

Additional observations from a re-analysis of the deposited data

How the results depend on the processing

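No NR4A region was called under any of the 11 alternatives, with the lowest adjusted p (limma) between 0.389 and 0.849. Among the 11 regions tested, 7 kept the direction of their log2 change under every alternative, the upstream Nr4a2 promoter among them (0.50 to 0.91). The changed directions were those of the Nr4a1 region at −20.4 kb (0.20 and 0.13 without control or IL-4 replicate 2), the Nr4a2 region at +809.9 kb (−0.34 without IL-4 replicate 1), the downstream Nr4a2 promoter (−0.12 and −0.46 without control or IL-4 replicate 2) and the Nr4a2 region at +820.1 kb (0.10 with mean peak scores, 0.05 with missing peaks at the lowest score, 0.13 and 0.48 without control or IL-4 replicate 2). Without 1 library the log2 changes of these regions ran from −0.50 to 0.20, −0.34 to 0.77, −0.46 to 0.76 and −0.53 to 0.48 in that order. The cause was not tested.

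Over the whole table, calls (main fit 4 higher and 2 lower) became 0 and 0 without the variance trend, with mean peak scores or with missing peaks at the lowest score, and all lower calls were lost whichever library was left out. The higher calls were then 6 without control replicate 1, 12 without control replicate 2 and 0 without either IL-4 library. The correlation of replicate differences over regions was 0.00677 (Pearson), so libraries with the same number did not visibly deviate together. This cannot show whether they shared an animal or a batch. The replicate block gave 11 higher and 3 lower calls and no NR4A call. Within replicate numbers 1 and 2 the paired differences in mean score were 0.17 and −0.51 for Nr4a1, 0.31 and 0.18 for Nr4a2, and 0.33 and −0.20 for Nr4a3. Without 1 library these mean differences ran from −0.36 to 0.02 for Nr4a1, 0.19 to 0.31 for Nr4a2 and −0.10 to 0.23 for Nr4a3.

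Peaks above the pooled median score of 7.37 left 0 IL-4-only and 0 control-only NR4A regions, and merging within 500 bp left 0 IL-4-only regions. Leaving out 1 library, which loosens the definition, gave 1 to 2 IL-4-only and 2 to 4 control-only regions, with 4 control-only regions without control replicate 1. The difference in peak number stayed negative, from −3.0 to −2.0. AP-1 elements fell from 2 regions to 1 in the 200 bp windows. Medians shifted by 0.030 (log2) under median scaling. With 2 libraries per group and unknown depth, differences of the size of these intervals were not detectable.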
